A study of Homo sapiens with 6 samples.

Results

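Mucins, trefoil factors and OLFM4 were examined in H1975 cells, an established human EGFR-mutant non-small cell lung cancer (NSCLC) line. The genes were taken by symbol from the expression table: the transmembrane mucins MUC1, MUC4, MUC13, MUC16 and MUC20, the gel-forming mucins MUC5AC and MUC5B, the trefoil factors TFF1 and TFF3, and the olfactomedin OLFM4. All 10 were found among the 27216 rows. They were chosen in part because OLFM4 has one of the largest falls between the groups, so their differences are given as a description, with no p-value, and their calls are only counted beside those of all rows. Parental cells (3 samples) carry the label of 0 h of osimertinib (Osi), an EGFR tyrosine kinase inhibitor, and adapted cells (3 samples) that of 72 h. The labels give 1 dose, 1000 nM, for all samples, while the study lists a different concentration elsewhere. All samples are H1975 with the genotype label WT, so the line's own EGFR mutation is shared by both groups. The columns of the parental samples are named for DMSO, and the submitters' design text names DMSO and Osi arms. The labels describe these samples as cells before treatment, so whether they were kept in DMSO is not clear. Apoptotic cells were washed away before RNA was taken, so the adapted samples hold the cells that stayed attached. The labels also describe digestion with RNase R, an enzyme that removes linear RNA, before library construction, whereas the study's methods name only total RNA.

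Mucins are long glycoproteins whose serine- and threonine-rich repeats carry dense O-linked sugars. Gel-forming mucins are secreted by goblet and gland cells and build airway mucus. Transmembrane mucins cover the apical surface of epithelia, and several of them are tumor antigens or shed serum markers. Trefoil factors are small cysteine-rich peptides secreted together with mucins. OLFM4 is a secreted glycoprotein best known from intestinal crypts, neutrophils and inflamed or malignant epithelium.

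In adapted cells the transcripts of the 2 most abundant secreted members were far lower, while the surface mucins moved in different directions. OLFM4 and MUC5B were lower in every adapted sample by a wide margin, MUC13 was lower by a smaller one, and MUC20 was higher. MUC1 was abundant in all samples. The direction of MUC16 depended on which adapted sample was read, and MUC4 was lower in all 3 adapted samples, but in 1 of them only just. Values below are log2(FPKM + 1) unless a linear FPKM is named. FPKM, which corrects fragment counts for transcript length and sequencing depth, was inferred from the values as the authors' unit. Summed over all rows, linear FPKM lay between 375342 and 387753 in each sample. The depth of the libraries is unknown, so the spread between samples is the only error given. The study states in general that its experiments were independent and had technical replicates, but not which of these the 3 sequenced samples of a group are, so p-values measure the spread between these samples, which may be technical.

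One adapted library stood apart and bears on several of the results. Across all rows, r was 0.991 between adapted replicate 1 and each of the other adapted samples, against 0.996 between adapted replicates 2 and 3 (across genes, which are not independent replicates). Of 12656 rows tested, 1328 passed limma's threshold (adjusted p under 0.05) with an absolute log2 fold change (log2FC) of 1 or more. In these rows the median distance of adapted replicate 1 from the parental mean was 86.3% of the group difference, against 107.1% for replicate 2 and 106.1% for replicate 3. It was the adapted sample nearest to the parental mean in 71.9% of them. Each result is therefore also given without this sample where it matters.

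The labelled identity was checked against marker genes. All 8 epithelial markers were expressed, but the keratins moved in opposite directions. KRT7 rose from 9.39 ± 0.01 to 10.47 ± 0.21 (SD, n = 3 each), with an adjusted p of 2.19e-04 by limma, and had the highest linear sum over all samples. KRT19, KRT8 and KRT18 were above it in parental cells, at 9.87 ± 0.0065, 9.82 ± 0.02 and 9.74 ± 0.01 (SD, n = 3 each). KRT19 fell by 0.75 (adjusted p = 4.74e-04), KRT18 by 0.57 (adjusted p = 0.00427), KRT8 by 0.28 (adjusted p = 0.0477) and the epithelial transcription factor ELF3 by 0.27 (adjusted p = 0.00673). After quantile normalization the calls of KRT8 (log2FC -0.15, adjusted p = 0.155) and ELF3 (-0.10, adjusted p = 0.252) were lost. KRT8 lost this call in each fit that left out a sample other than adapted replicate 1. EPCAM, an epithelial adhesion molecule, was at 7.60 ± 0.02 and 7.45 ± 0.14 and did not pass the threshold. The summed linear FPKM of the 8 genes lay between 3898 and 4216 in all samples, with these opposite changes inside it. The lung lineage factor NKX2-1 was at 5.004 ± 0.01 and 5.48 ± 0.25, and the aspartic protease NAPSA at 6.69 ± 0.01 and 5.88 ± 0.37. The 4 surfactant genes tried (SFTPA1, SFTPB, SFTPC and SFTPD) were at most 0.29 in every sample. Among markers of other cell types, the leukocyte gene PTPRC was at 0 in parental cells and at most 0.08 in adapted cells, and CD3E was listed at 0 throughout. The 5 blood cell markers summed to between 74.3 and 76.8 linear FPKM in parental and between 14.7 and 29.6 in adapted samples, nearly all of it CD68, a lysosomal protein that many non-immune cells also express. The 5 fibroblast markers summed to between 3.04 and 3.15 FPKM in parental and between 7.62 and 9.19 in adapted samples, with COL1A1 the most abundant. LUM was at 0.05 ± 0.01 in parental and 0.61 ± 0.11 in adapted cells, with no overlap, and COL1A2, DCN and PDGFRA were at most 0.11 in every sample. The 4 endothelial markers summed to between 1.13 and 1.88 FPKM in parental and between 1.49 and 3.50 in adapted samples. CDH5 was at 0.21 ± 0.05 in parental and 1.71 ± 0.47 in adapted cells, whereas PECAM1, which made up most of the parental sum, was at 1.22 ± 0.21 and 0.09 ± 0.02 (SD, n = 3 each). The 4 ciliated cell markers summed to between 3.95 and 4.39 FPKM and between 8.48 and 13.6, where PIFO led. The part of these genes in the results below was not tested. In bulk RNA, fewer cells that express a gene and less RNA per cell cannot be told apart.

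Promoter sequences from RefSeq (GRCh38.p14) were found for 5 of the 10 genes. Those of OLFM4 and MUC13 are printed because these genes were lower in all adapted samples and their windows share a motif. Since the windows were picked for it, its presence in both is no result. MUC5B, MUC5AC and TFF1, also lower in all adapted samples, have no window. MUC4 was lower in all of them too, but its window holds no match to that motif. Each holds the 250 bases before the transcription start, 5′ to 3′ on the strand of the gene, with matches to the AP-1 motif TGANTCA in capitals. AP-1 is a dimer of FOS and JUN family factors that act downstream of growth factor signaling.
OLFM4 (chr13:53028563-53028812, plus strand): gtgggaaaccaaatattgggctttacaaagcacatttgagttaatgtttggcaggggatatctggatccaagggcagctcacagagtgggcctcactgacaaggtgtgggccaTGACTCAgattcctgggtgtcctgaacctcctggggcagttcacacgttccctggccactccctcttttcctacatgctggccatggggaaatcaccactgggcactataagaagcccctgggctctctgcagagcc
MUC13 (chr3:124934752-124935001, minus strand): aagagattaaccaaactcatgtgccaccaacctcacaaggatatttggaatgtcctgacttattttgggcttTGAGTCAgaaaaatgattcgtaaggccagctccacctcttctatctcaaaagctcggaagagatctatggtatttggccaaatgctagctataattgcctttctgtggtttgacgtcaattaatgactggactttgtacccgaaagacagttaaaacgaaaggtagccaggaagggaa
The OLFM4 window holds TGACTCA from 137 to 131 bases before the start, and the MUC13 window holds TGAGTCA from 178 to 172 bases before it. The motif, searched on both strands, was present in 6.57% of the 35116 promoter windows of the same length. A TATAAA box (10.7% of all windows), a FOXA motif, TGTTTNC (15.5%), and the NF-kB motif (19.9%), were absent from both windows. Among the other genes, MUC1 holds TATAAA in each of its 2 windows, MUC4 holds 1 FOXA match, and the inner of 2 MUC16 starts holds an AP-1 match. These matches describe letters in a window and do not show binding.

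OLFM4 lies on chromosome 13 (GRCh38.p14, 53028813 to 53052057, plus strand) and had the highest level of the 10 genes in parental cells. Its parental values were 6.31, 6.26 and 6.27, and its adapted values 3.22, 0.13 and 0.17 (replicates 1, 2 and 3). The groups did not overlap, but adapted replicate 1 stood far above the other two. On the linear scale the parental samples read 78.3, 75.6 and 76.3 FPKM, against 8.30, 0.096 and 0.122 in the adapted samples. The mean log2 value went from 6.28 ± 0.03 to 1.17 ± 1.77 (SD, n = 3 each), and log2FC was -5.11 (SE, standard error, 0.76) with all samples and -6.13 without adapted replicate 1. This difference, which chose the gene, was the 4th lowest of the 12656 rows tested. Its spread among adapted samples ranked 7th highest of the same rows, so the size of the difference depends strongly on 1 library while its direction does not.

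MUC5B, the gel-forming mucin of airway glands and distal airways, lies on chromosome 11 (1223066 to 1262172, plus strand). It was nearly as abundant as OLFM4 in parental cells, with values of 6.10, 6.06 and 6.05. In adapted cells it was at 1.99, 1.08 and 1.01, all far under the parental range and again highest in replicate 1. The linear mean was 66.1 ± 1.27 FPKM before and 1.70 ± 1.10 FPKM after adaptation (SD, n = 3 each), a ratio of 38.9, or of 62.1 without adapted replicate 1. The log2FC was -4.71 (SE 0.24), or -5.02 without adapted replicate 1, and ranked 9th lowest of all rows tested. An antisense transcript, MUC5B-AS1, overlaps the gene in GENCODE v29, and since no stranded counting is stated its reads cannot be told apart from those of MUC5B.

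MUC5AC, the gel-forming mucin of surface goblet cells, is the upstream neighbor of MUC5B (chromosome 11, 1157953 to 1201138). Its values were low, at 0.78, 0.85 and 0.80 in parental and 0.02, 0.01 and 0.01 in adapted cells. The groups did not overlap, but the mean over all samples, 0.41, was under the minimum of 1 required for testing. The parental level of 0.752 ± 0.041 linear FPKM (SD, n = 3) was far under that of MUC5B, so that of the 2 gel-forming mucins MUC5B carried nearly all of the signal. With no read counts at hand, the adapted values cannot be separated from background.

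Among the transmembrane mucins, MUC1, a heavily shed surface mucin and tumor antigen, was the most abundant. It lies on chromosome 1 (155185824 to 155192915, minus strand). Parental values were 6.10, 6.05 and 6.13 and adapted values 6.47, 6.19 and 6.10, so the groups overlapped. The log2FC of 0.16 (SE 0.10) became 0.05 without adapted replicate 1, the sample with the highest value. AL713999.1, a gene annotated across MUC1 on the same strand, was between 0.777 and 0.9998 in the 6 samples.

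MUC13, a surface mucin of the gut and of many carcinomas, lies on chromosome 3 (124905442 to 124934751, minus strand). Its values were 4.12, 4.07 and 4.05 in parental and 2.99, 3.24 and 2.56 in adapted cells. All 3 adapted samples were lower, and replicate 1 lay between the others. The mean went from 4.08 ± 0.03 to 2.93 ± 0.35 (SD, n = 3 each), and log2FC was -1.15 (SE 0.16). Leaving out adapted replicate 1 gave -1.18. The difference of MUC13 thus moved little with that library.

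MUC4, a large surface mucin that can bind ERBB2, lies on chromosome 3 (195746771 to 195811929, minus strand). Its parental values were 3.03, 3.03 and 3.06, and its adapted values 3.03, 2.29 and 2.39. Adapted replicate 1 was just under the lowest parental sample, whereas the others were clearly lower. The log2FC was -0.47 (SE 0.18) with all samples and -0.70 without adapted replicate 1.

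MUC16, the carrier of the CA125 antigen, is encoded by a very long gene (chromosome 19, 8848844 to 9065751, minus strand). It was at 4.74, 4.76 and 4.72 in parental cells and at 4.61, 5.36 and 5.46 in adapted cells. The groups overlapped, because adapted replicate 1 was below every parental sample while the others were above them. The log2FC was 0.41 (SE 0.20) with all samples and 0.67 without adapted replicate 1, but 0.30 without adapted replicate 2 and 0.25 without adapted replicate 3. On the linear scale, adapted replicates 2 and 3 read 40.1 and 43.0 FPKM, against a parental mean of 25.7 ± 0.30 (SD, n = 3).

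MUC20, a small surface mucin described as a modulator of MET signaling, lies on chromosome 3 (195720978 to 195733551, plus strand), beside MUC4. It was at 3.63, 3.58 and 3.66 in parental and at 4.05, 4.22 and 4.64 in adapted cells, and no adapted sample overlapped the parental range. The mean went from 3.62 ± 0.04 to 4.30 ± 0.30 (SD, n = 3 each), and log2FC was 0.68 (SE 0.14), or 0.81 without adapted replicate 1. MUC20 and its neighbor MUC4 lie on opposite strands, and their mean differences had opposite signs (0.68 and -0.47). A nearby pseudogene copy, MUC20P1, and the overlapping noncoding gene MUC20-OT1 could share reads with MUC20, depending on how the authors counted.

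The trefoil factors were at or close to 0. TFF1, an estrogen-responsive gene of gastric and breast epithelium, was at 0.42, 0.58 and 0.78 in parental cells and was listed at 0 in all 3 adapted samples. It lies on chromosome 21 (42362282 to 42366535, minus strand). The corresponding parental values were 0.336, 0.493 and 0.717 linear FPKM, so the gene was barely detected before treatment. TFF3, the goblet cell trefoil factor on the same chromosome (42311667 to 42315409), was listed at 0 in all 6 samples. Neither was tested.

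**Figure D1:**
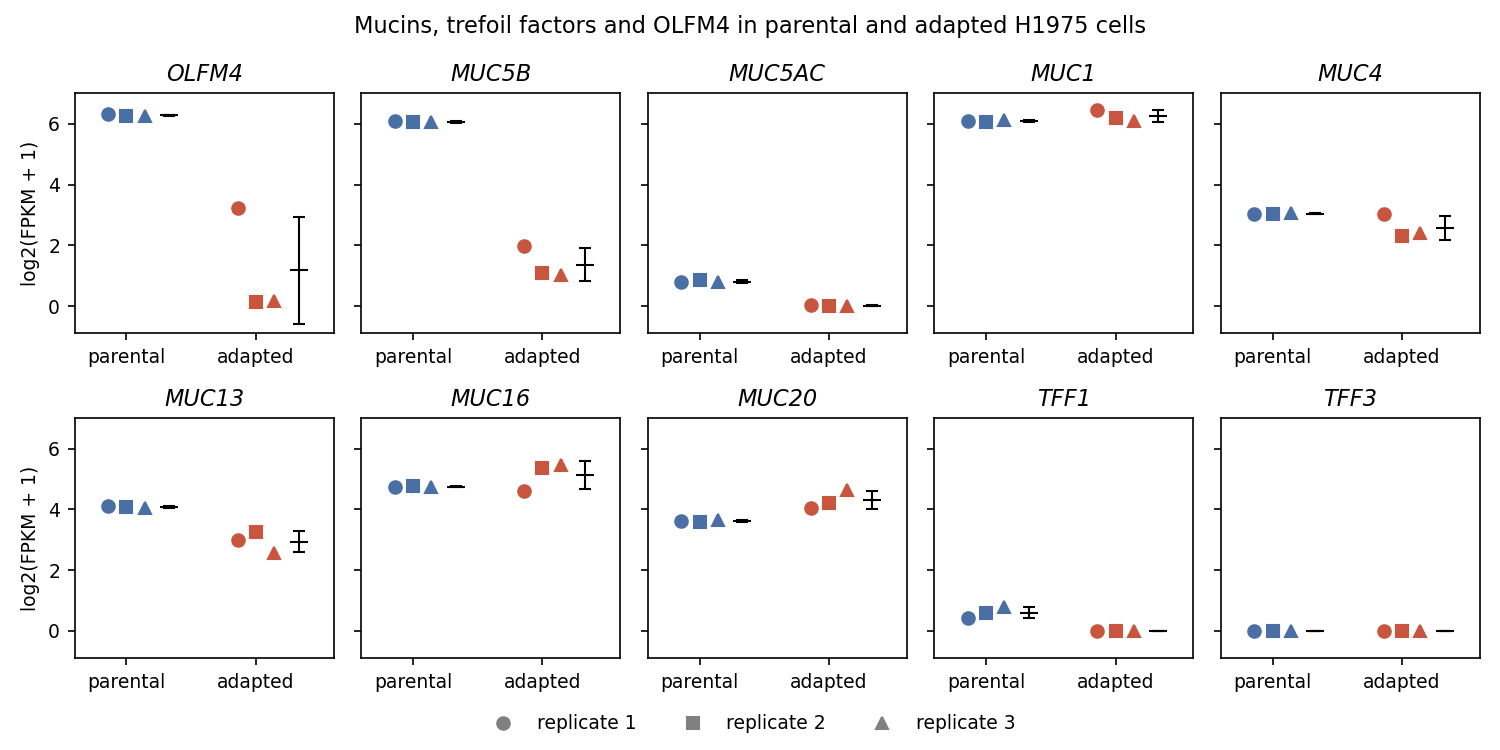
Expression of the 10 genes as log2(FPKM + 1) on the y axis, in 3 parental (blue) and 3 adapted (red) samples, with symbols for the replicates and a black bar for the mean ± SD of each group. OLFM4, MUC5B and MUC13 are lower in every adapted sample, as are MUC5AC and TFF1 at low levels and MUC4, only just in replicate 1. MUC20 is higher, and adapted replicate 1 (circle) is apart from the others for OLFM4, MUC4 and MUC16.

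Counted together, 7 of the 10 genes passed the filter on low values (all but MUC5AC, TFF1 and TFF3), and 4 of these 7 passed limma's threshold, against 56.9% of all rows tested. MUC5B, MUC13 and OLFM4 were the 3 lower ones (26.2% of all rows were called lower) and MUC20 was the 1 higher (30.7% of all rows). The share of calls was thus that of the whole table, and nothing is read from it, since the genes were chosen in part from this contrast. In 5 of the 7 the groups did not overlap, against 66.3% of all rows. Without adapted replicate 1, MUC4 and MUC16 also passed, giving 6 of 7 against 66.1% of all rows. In that fit the adapted mean of OLFM4 was 0.15, under the filter of 1, so OLFM4 is counted there through the parental group alone. The median log2FC of the 7 was -0.47, beside 0.03 for all rows.

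**Figure D2:**
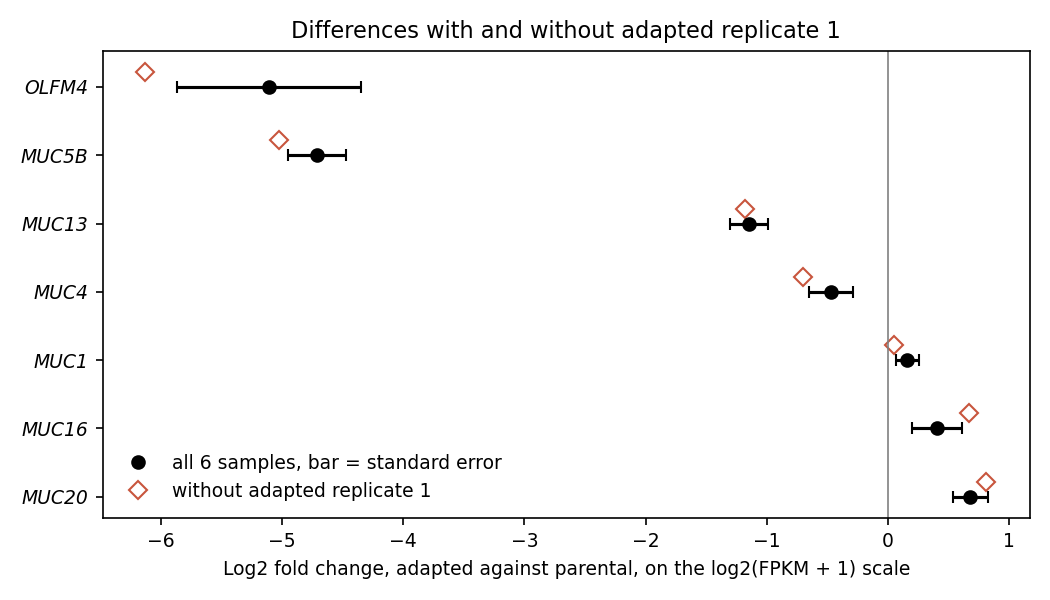
Log2FC of adapted against parental cells (x axis, log2(FPKM + 1) scale) for the 7 genes that passed the filter. Black points are all 6 samples with the SE from limma, and open diamonds leave out adapted replicate 1, which moves OLFM4 from -5.11 to -6.13 and MUC16 from 0.41 to 0.67.

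The order of the levels changed between the groups. FPKM is scaled to length, so levels are set side by side on this scale. The annotation and the handling of reads from repeats or similar sequences are not known, so the order between genes is approximate. In parental cells OLFM4 was highest, followed by MUC1 and MUC5B, whose ranges overlapped, and then by MUC16, MUC13, MUC20, MUC4, MUC5AC, TFF1 and TFF3, each apart from the next. In adapted cells MUC1 led, MUC16 and MUC20 followed with overlapping ranges, then MUC13 and MUC4, which also overlapped. MUC5B came after these. OLFM4 went from rank 1 to rank 7 by mean log2 value, but its adapted range overlapped those of MUC13, MUC4 and MUC5B. In adapted replicate 1 OLFM4 (3.22) was above MUC13 (2.99) and MUC4 (3.03), and by linear mean it was above MUC5B (2.84 against 1.70 FPKM). Without that sample the linear mean of OLFM4 was under that of MUC5B (0.109 against 1.07 FPKM).

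The make-up of mucin transcripts shifted accordingly. The 7 mucins summed to 194 ± 2.29 linear FPKM before and 144 ± 0.54 after adaptation (SD, n = 3 each). MUC5B made up 34.0% ± 0.53 of this sum in parental cells and 1.18% ± 0.77 in adapted cells, where replicate 1 held 2.07% and the others 0.78% and 0.70%. The share of MUC1 went from 34.6% ± 0.70 to 52.7% ± 7.40, that of MUC16 from 13.2% ± 0.29 to 24.7% ± 7.28 and that of MUC20 from 5.83% ± 0.14 to 13.2% ± 2.97. The share of MUC13 went from 8.19% ± 0.17 to 4.71% ± 1.26, and that of MUC4 was 3.72% ± 0.06 and 3.54% ± 1.24. The adapted sum was nearly equal in the 3 samples (between 143 and 145 FPKM) although its parts were not. In adapted replicate 1 MUC1 held 60.9% and MUC16 held 16.3%, whereas in replicate 3 they held 46.7% and 29.7%. These sums compare transcript abundance only, under the same limits on comparing genes, and a share can rise because another gene fell.

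**Figure D3:**
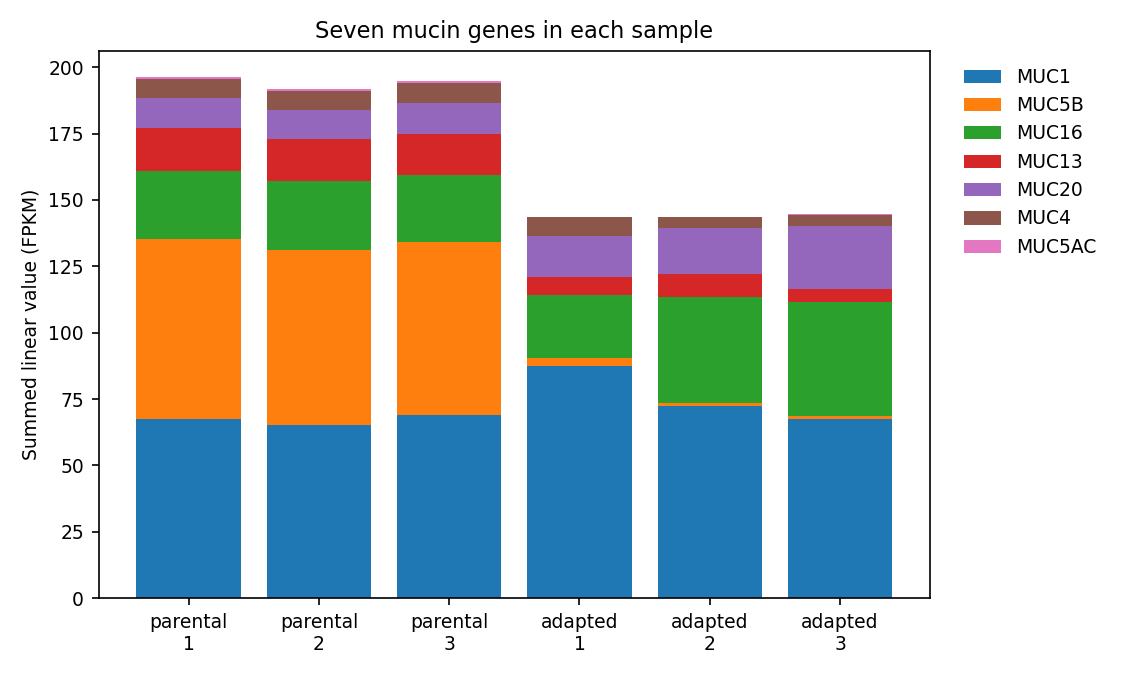
Linear FPKM of 7 mucin genes stacked for each sample (y axis, FPKM, starting at 0). The stacks sum to between 192 and 196 in parental and between 143 and 145 in adapted samples, and the MUC5B segment almost disappears in the latter.

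The genes whose profiles were most like that of OLFM4 were found by Pearson correlation of log2 values over the 6 samples, among 429 named genes whose highest and lowest values differed by at least 2. These were AURKB (r = 0.9996), UBE2C (0.9995), ZG16B (0.9994), PLK1 (0.9988) and MAFF (0.9986). AURKB and PLK1 are mitotic kinases, UBE2C is the ubiquitin-conjugating enzyme of the anaphase-promoting complex, ZG16B is a secreted lectin and MAFF is a small bZIP factor. The adapted values of AURKB were 4.94, 3.85 and 3.81, and its log2FC was -1.83, against -5.11 for OLFM4. ZG16B had adapted values of 2.69, 1.46 and 1.46, against 3.91, 3.80 and 3.92 in parental cells. For MUC20, the member with the largest positive difference, the closest profiles were those of PHACTR2 (r = 0.969), UBD (0.968), MXRA7 (0.967), TXNIP (0.960) and FAM189A2 (0.957), among 430 genes. A correlation over 6 samples in 2 groups mainly reflects the group difference. Genes chosen by likeness to OLFM4 also share the position of its adapted replicate 1 through that choice, so both are given as a description.

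**Figure D4:**
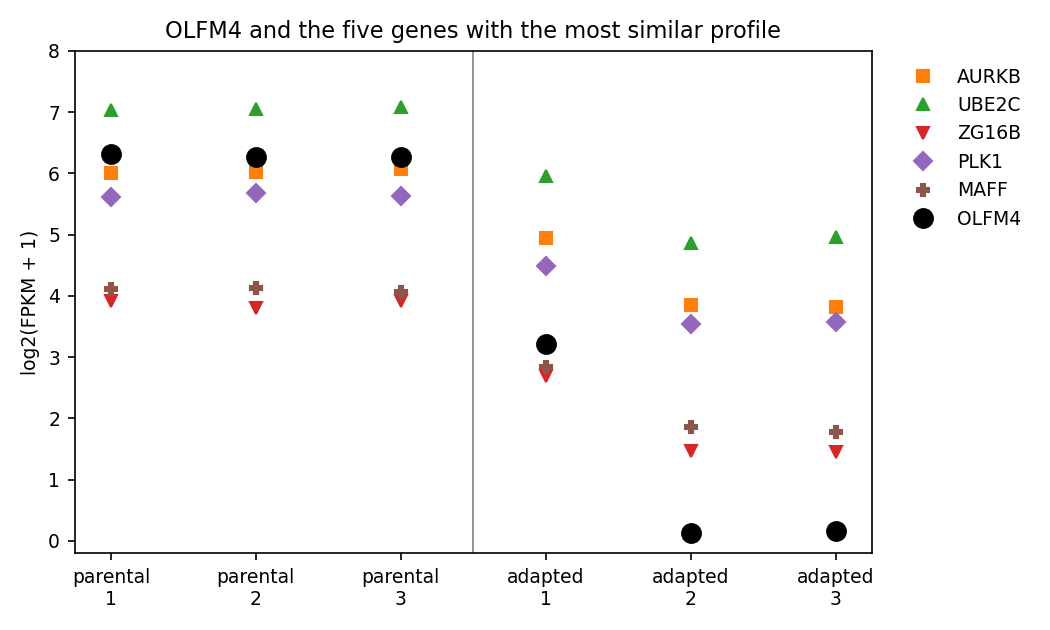
Log2(FPKM + 1) (y axis) of OLFM4 (black) and the 5 genes with the highest Pearson correlation to it, in the 6 samples (x axis). In all 6 genes adapted replicate 1 lies between the parental samples and the other adapted samples, which follows from the choice by correlation, and OLFM4 spans the widest range.

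Other mucins were mostly at low levels. Of 15 further mucin genes, 12 did not pass the filter, and 4 of these, among them MUC2, the intestinal gel-forming mucin, were listed at 0 in all samples. The 3 tested genes rose past the threshold, beside 56.9% of all rows called and 30.7% called higher, and none of these is a gel-forming mucin of mucus. MCAM, an adhesion molecule also called MUC18, rose from 3.61 ± 0.0049 to 5.94 ± 0.21 (SD, n = 3 each), with an adjusted p of 5.36e-06 by limma. The values of OVGP1, a secreted glycoprotein of the oviduct, were 2.37, 2.30 and 2.19 in parental and 2.91, 2.92 and 2.56 in adapted cells (log2FC 0.51, adjusted p = 0.0068). CD164, a sialomucin of endosomes and the cell surface, rose by 0.28 (adjusted p = 0.0225). CD164 lost this call in each fit that left out a parental sample.

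Of 10 other trefoil and olfactomedin genes, 2 passed the filter and both rose, beside 56.9% of all rows called and 30.7% called higher. OLFML2A, a secreted olfactomedin-like protein, was at 0.79, 0.85 and 0.89 in parental and at 3.72, 4.53 and 4.60 in adapted cells, with log2FC at 3.44 (SE 0.22). It passed the filter through the adapted group alone, so its difference is given with no p-value and its call supports nothing. OLFM2 rose from 2.09 ± 0.17 to 4.14 ± 0.37 (SD, n = 3 each), and log2FC was 2.05 (adjusted p = 1.02e-04). Adapted replicate 1 was the lowest adapted sample for OLFML2A and for OLFM2, and without it the log2FC values were 3.72 and 2.26. TFF2, the remaining trefoil factor, was at most 0.17 in parental and listed at 0 in adapted cells.

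Of 30 genes of secretory and goblet cells, 17 did not pass the filter. All 13 tested genes passed the threshold (56.9% of all rows), 9 of them lower (26.2% of all rows) and 4 higher (30.7%), with a median log2FC of -1.12 beside 0.03 for all rows. TCN1, a vitamin B12-binding secretory protein, fell from 5.11 ± 0.04 to 3.06 ± 0.24 (SD, n = 3 each), with an adjusted p of 1.56e-05 by limma. ZG16B fell by 2.01 on the log2 scale (adjusted p = 0.0013), and PIGR, the receptor that carries IgA across epithelia, fell by 1.95 (adjusted p = 3.26e-05). SPDEF, the transcription factor of goblet cell differentiation, and AGR2, the disulfide isomerase needed for mucin folding, were named after their values were seen, as was FOXA1 below. SPDEF had parental values of 3.35, 3.23 and 3.21 and adapted values of 1.94, 1.37 and 1.17, with log2FC at -1.77 (limma, adjusted p = 2.12e-04). AGR2 went from 6.14 ± 0.04 to 4.76 ± 0.38 (SD, n = 3 each), and log2FC was -1.38 (limma, adjusted p = 4.88e-04).

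Of the 4 secretory cell genes that rose, AGR3, the paralog of AGR2, went from 0.33 ± 0.10 to 2.06 ± 0.26 (SD, n = 3 each), and is given with no p-value because it passed the filter through the adapted group alone. The membrane-anchored adhesion proteins CEACAM6 and CEACAM5 split by sample. CEACAM6 was at 4.88, 4.81 and 4.86 in parental and at 5.12, 7.39 and 7.19 in adapted cells (log2FC 1.72, adjusted p = 0.0286), and CEACAM5 was at 3.39, 3.37 and 3.32 and at 3.73, 5.68 and 5.43 (1.59, adjusted p = 0.0205). Without adapted replicate 1 the log2FC values were 2.44 and 2.20. FOXA1, a transcription factor of airway and secretory epithelium, went from 4.64 ± 0.02 to 5.06 ± 0.33 (SD, n = 3 each), and log2FC was 0.42 (limma, adjusted p = 0.0451). The call of each of these 3 genes was lost when any other sample was left out (adjusted p from 0.07 to 0.0965 for CEACAM6 from 0.0541 to 0.0723 for CEACAM5 and from 0.0991 to 0.135 for FOXA1). The 3 calls were also lost with no filter on low values (adjusted p of 0.0661, 0.0502 and 0.0867). The number of secretory and goblet cell genes called was 9 in each fit that left out a sample other than adapted replicate 1. The share of all rows called in these fits was between 45.5% and 52.6%, against 56.9% with all samples.

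Enzymes of mucin-type O-glycosylation were called in both directions. Of 36 genes, 29 were tested, with a median log2FC of 0.06. Among the tested genes 9 rose (30.7% of all rows), 9 fell (26.2%) and 11 did not pass the threshold. The share called, 62.1%, was near the 56.9% of all rows, so these counts are given as a description. Of the GALNT enzymes, which attach the first sugar, 11 were tested, 5 rose (30.7% of all rows), 2 fell (26.2%) and 4 did not pass the threshold. GALNT18 rose by 1.07 and GALNT10 by 1.05 (limma, adjusted p = 5.66e-04 and 1.05e-04). The 2 that fell, named after their values were seen, were GALNT3, from 5.17 ± 0.08 to 4.45 ± 0.04 (SD, n = 3 each), with an adjusted p of 9.55e-05 by limma, and GALNT12, by 0.23 on the log2 scale (adjusted p = 0.0472). GALNT12 lost this call in each fit that left out a sample other than adapted replicate 1. GCNT1, a core branching enzyme, rose by 1.23 (limma, adjusted p = 0.00105). GCNT3, the branching enzyme of mucous epithelia, fell from 2.62 ± 0.11 to 1.05 ± 0.36 (SD, n = 3 each), with an adjusted p of 2.76e-04 by limma. GCNT2 overlapped between the groups (3.21 ± 0.03 and 3.28 ± 0.07), and GCNT4 (0.10 ± 0.01 and 0.52 ± 0.23) did not pass the filter. ST6GALNAC4, a sialyltransferase, fell by 1.66 on the log2 scale (adjusted p = 1.32e-04), and B3GNT3, which extends core structures, fell by 0.87 (adjusted p = 0.00448). FUT1, a fucosyltransferase counted among the 9 that fell, passed the filter through the parental group alone. Without adapted replicate 1, 12 rose and 10 fell, while the share of all rows called went from 56.9% to 66.1%.

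Of 15 shedding enzymes and binding partners, 12 were tested, 5 rose, 4 fell and 3 did not pass the threshold, with a median log2FC of 0.02. The share called was 75.0%, beside 56.9% of all rows. ERBB2, the receptor bound by MUC4, rose from 5.06 ± 0.02 to 5.996 ± 0.24 (SD, n = 3 each), with an adjusted p of 4.58e-04 by limma. EZR, the ezrin linker of the apical membrane to actin, rose by 0.66 (adjusted p = 0.00165), and LGALS3, a galectin that binds MUC1, rose by 0.48 (adjusted p = 0.0393). MET, described as a partner of MUC20, fell by 1.44 on the log2 scale (adjusted p = 2.19e-04). CTNNB1 fell by 0.64 (adjusted p = 4.06e-04) and CTNND1 fell by 0.30 (adjusted p = 0.0358), both catenins that bind the tail of MUC1. Without adapted replicate 1 the log2FC of CTNND1 was -0.18. The number called was 4 in each fit without a parental sample, 5 without adapted replicate 2 and 10 without adapted replicate 1. In the same fits the share of all rows called was between 45.5% and 46.3%, 51.1% and 66.1%. LGALS3 lost its call in every fit without a parental sample and without adapted replicate 2 or 3 (adjusted p from 0.0911 to 0.116), and CTNND1 in every fit without a parental sample (from 0.087 to 0.0995).

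OLFM4 is widely used beside other crypt markers, so these were read too. Of 14 crypt and stem cell genes, 7 were tested, 4 rose, 1 fell and 2 did not pass the threshold, with a median log2FC of 0.31. The share called was 71.4%, beside 56.9% of all rows. RNF43, a ubiquitin ligase that restrains Wnt receptors, rose from 1.44 ± 0.03 to 2.82 ± 0.61 (SD, n = 3 each), with an adjusted p of 0.00391 by limma, and BMI1 rose by 0.46 (adjusted p = 6.16e-04). SOX9, a crypt transcription factor that is among the 4, was at 0.81 ± 0.06 in parental and 1.75 ± 0.15 in adapted cells, and it too passed the filter through the adapted group alone. CD44, a hyaluronan receptor, fell by 0.91 (adjusted p = 0.0206) and lost this call without parental replicate 1 or 2 or adapted replicate 2 or 3. LGR5 and ASCL2, the defining crypt base genes, were at most 0.19 in every sample and were not tested.

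**Figure D5:**
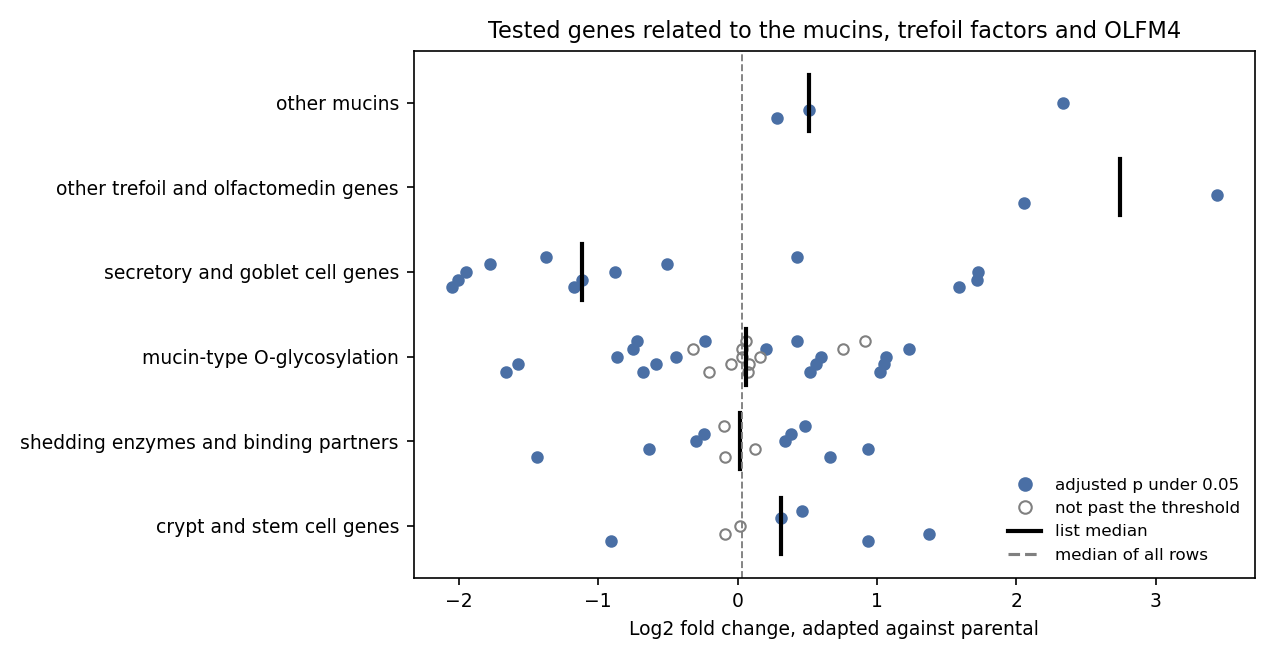
Log2FC of adapted against parental cells (x axis) for every tested gene of 6 related lists (rows), filled where adjusted p was under 0.05 (limma). Black lines mark list medians, lowest for secretory and goblet cell genes (-1.12), and the dashed line marks the median of all rows (0.03).

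The genes beside OLFM4, the mucins and the trefoil factors were read as well. RefSeq gives 29 distinct protein-coding neighbors (2 on each side of each gene), of which 26 have a row and 11 were tested. Of these, 4 rose, 1 fell and 6 did not pass the threshold, with a median log2FC of 0.18. The share called was 45.5%, beside 56.9% of all rows. HEG1, a mucin-like transmembrane protein 31.0 kb from MUC13, rose from 1.53 ± 0.05 to 3.87 ± 0.05 (SD, n = 3 each), with an adjusted p of 1.16e-06 by limma, while MUC13 was lower. On the other side of MUC13, ITGB5, 4.0 kb away, rose by 0.29 (adjusted p = 0.0266). TOLLIP, 12.2 kb from MUC5B, rose by 0.22 (adjusted p = 0.0114), and THBS3, 2.7 kb from MUC1, rose by 0.56 (adjusted p = 0.00207). TNK2, 51.4 kb from MUC4, fell by 0.33 (adjusted p = 0.00879). Apart from HEG1, these neighbors were named after their values were seen, to give the members of the counts. The number called was 3 without parental replicate 3, when ITGB5 (adjusted p = 0.0991) and TOLLIP (0.0529) lost their calls, and ITGB5 also lost it without parental replicate 2 (0.0703). In these fits the share of all rows called was 46.3% and 45.5%. The 4 neighbors of OLFM4 with or without a row lie between 180 and 4089 kb away and none was tested.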

How the data were processed

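RNA-sequencing of 6 samples of H1975 cells was analyzed. The authors deposited 1 table of log2 values with 27216 rows and 1 column per sample, and no other per-sample columns are in it. Each column was assigned to its sample through its group name and replicate number. The unit is not named by the authors. It was taken as log2(FPKM + 1), because undoing the logarithm and subtracting 1 left 6 decimals (tolerance 0.01 of the last decimal) in 27069 rows. In 147 rows 1 of the groups carries an added constant (0.65 or 0.66 in adapted, 0.2 in parental samples), and none of the 10 genes or of the 151 related or marker genes is among these. The submitters' processing notes name Bowtie2 2.1.0, STAR, edgeR and hg38 with no roles, and the study's methods name DESeq2. Which tool made the values and the annotation are not given in the sources used here.

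Rows with a mean of at least 1 (12656) were fitted with limma 3.58.1 in R 4.3.3 (lmFit, then eBayes with trend, no pairing); p-values were adjusted over all rows by Benjamini-Hochberg, with a threshold of 0.05. DESeq2 needs counts and was not run. An exact permutation test of 3 samples against 3 cannot go below 0.1, so none is given. In data simulated for this comparison (12656 rows, 200 shifted by 1 on the log2 scale), limma recovered 90.5% and 3.21% of its calls were unchanged rows. The simulated rows were independent, had the same spread in both groups, and were shifted only where their mean was not low. The real samples differ in this, so these rates check the code and do not describe the real calls. The 10 genes and all lists were chosen with earlier results of these data known. Named genes were all 10, up to 3 rising most and 3 falling most per list that passed the threshold without overlap of the groups, neighbors with a log2 fold change of 1 or more in size, the 5 profiles most like OLFM4 and like MUC20, and all cell type markers; others are marked in the text or give a count's members. Overlapping genes and strands are from GENCODE v29. Alternatives were another pseudocount (0.1), no filter or a mean of at least 3, quantile, equal-sum and median scaling, eBayes without trend or robust, the replicate block, leaving out each sample, and leaving out or correcting the rows with a constant.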

Additional observations from a re-analysis of the deposited data

How the results depend on the processing

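The 7 tested genes among the mucins and OLFM4 kept their direction in every alternative in which they were fitted (MUC4 was not in that with a mean of at least 3). Their calls are a description, since they were chosen in part from this contrast. The number past the threshold was 4. It was 6 without adapted replicate 1, where MUC4 (-0.70) and MUC16 (0.67) were added, and 4 without each of the others. It was 6 with no filter, where MUC5AC and TFF1 were added, while 36.6% of all rows were called (56.9% in the main fit). With a limit of 1 on the absolute log2 fold change it was 3, which leaves out MUC20 (0.68). The number of all rows past it, 7202, was 4532 with a mean of at least 3, 1328 with the limit of 1 added, and between 5763 and 8370 when each sample was left out. With no filter (36.6% of all rows called) the counts were 4 (main 2) for trefoil and olfactomedin genes and 8 (main 5) for crypt and stem cell genes. With a mean of at least 3 they were 1 and 3, and 3 (main 5) for the genomic neighbors, since the filter changes which genes are tested. In that setting 58.9% of all rows were called. Leaving out each sample gave between 4 and 10 calls for shedding enzymes and binding partners (main 9) and between 3 and 7 for the neighbors. In these fits between 45.5% and 66.1% of all rows were called. CDH1, an epithelial marker with a log2 fold change of 0.0071, changed sign with median centring (-0.0127) and without adapted replicate 2 (-0.0851) or 3 (-0.0912), and passed the threshold only without adapted replicate 1 (0.1977). KRT8 and ELF3 lost their calls after quantile normalization, and KRT8 also with the replicate block (adjusted p = 0.0828) and with no filter (0.119), as did LGALS3 (0.0797) and CTNND1 (0.0635) with no filter and CTNND1 with equal sums (0.0525). FOXA1 lost its call with equal sums (0.0507), median centring (0.0513) and eBayes without trend (0.0507), and GALNT12 with no filter (0.0704), without trend (0.0558) and with the block (0.0503). The cause of these changes was not tested. With the replicate number as a block, 4 of the 7 genes were past the threshold, as without it, and OLFM4 stayed at -5.11. Same-numbered samples did not deviate together (correlations of -0.05, -0.03 and -0.02), so the numbers were not taken to pair them. The depth is unknown, so the adapted values of MUC5AC and TFF1 and all values of TFF3 cannot be separated from no expression. In parental cells MUC5AC (0.81 ± 0.03) and TFF1 (0.59 ± 0.18, SD, n = 3 each) were low but above 0 in every sample. The read counts behind these values are not known.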
